A study of Mus musculus with 12 samples.

Results

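Replication-dependent histone genes were examined in the liver of mice that lack both cryptochromes. The members are the genes whose symbol in the deposited count table begins with Hist1h, Hist2h, Hist3h or Hist4h and that had a total of at least 15 counts over the 12 libraries. The pattern matched 68 of 22618 genes, and 64 reached that total. Just inside the limit was Hist1h1t, a linker histone of the male germ line, with 18 counts, and just outside were Hist1h2aj with 9, Hist1h2ao with 7, and Hist1h2bq and Hist1h2br with 6 each. The 64 members comprise 6 genes for the linker histone H1, 17 for H2A, 16 for H2B, 12 for H3 and 13 for H4. By the cluster named in the symbol, 50 belong to Hist1 on chromosome 13, 10 to Hist2 on chromosome 3, 3 to Hist3 on chromosome 11 and 1 to Hist4 on chromosome 6. Of the 50, the pseudogene Hist1h2al (chr13:51202727-51203065) lies far from the others.

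All 12 libraries came from male Cry1/2 DKO mice, which carry no functional Cry1 or Cry2, on the C57BL/6j background, aged 12 to 16 weeks, conventionally raised and fed at night only. Livers were taken at zeitgeber time (ZT, hours after lights on) 2, 6, 10, 14, 18 and 22, with 2 libraries per time point, and no other genotype was analysed here. The labels do not say that the libraries of a time point come from separate animals, so the p-values below measure the spread between these libraries. Because the libraries were made from total RNA depleted of rRNA, transcripts without a poly(A) tail were kept.

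Replication-dependent histone genes supply the histones that package newly made DNA, and their transcripts accumulate in cells in S phase. H2A, H2B, H3 and H4 form the nucleosome core, and H1 binds the linker DNA between nucleosomes. Most of these genes have no intron, and their mRNAs end at a short stem-loop, bound by the protein SLBP, in place of a poly(A) tail. The adult liver divides little, and some members are also expressed in cells that do not divide.

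The stem-loop was found after the coding sequence, in the 3′ UTR, in GENCODE M21 models of 45 of the 64 members, against 60 of 22527 protein-coding genes (0.266%) over the whole annotation. The sequences below are shown because they are the mark shared by these mRNAs and because they differ between classes; capitals mark the 16 bases of the stem-loop, on the sense strand, and lower case marks 5 flanking bases on each side.
Hist1h4a: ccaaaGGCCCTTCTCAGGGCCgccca
Hist1h4b: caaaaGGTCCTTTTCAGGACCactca
Hist1h4h: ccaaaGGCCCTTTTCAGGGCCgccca
Hist1h2ab: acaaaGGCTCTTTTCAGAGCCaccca
Hist1h2bb: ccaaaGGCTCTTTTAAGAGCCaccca
Hist1h3a: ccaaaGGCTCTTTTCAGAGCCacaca
Hist2h3c1: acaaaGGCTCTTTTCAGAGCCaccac
The form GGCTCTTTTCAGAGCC was held by 25 members (3 H1, 9 H2A, 8 H2B and 5 H3 genes) and by no H4 gene. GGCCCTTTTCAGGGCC was held by 7 members, all H4. Hist1h4a was the single member with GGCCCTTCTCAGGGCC. The stem-loop began 24 to 61 bases after the last coding base, with a median of 34. In 22 members the annotated model ended within 100 bases after the stem-loop, in 23 it ran further, and in 19 no stem-loop was found in the model. These 19 genes need not lack a stem-loop, because several of their models are short and may leave no 3′ UTR to search. Among them Hist2h2bb, Hist1h2al and Hist3h2bb-ps are not annotated as protein-coding, so the search after the coding sequence could find none. For Hist1h4k the model has 312 exon bases against 409 in RefSeq, and for Hist1h2bl 381 against 473.

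Of the 64 members, 61 are annotated as protein-coding, 2 as pseudogenes and 1 as a lincRNA, and 59 have 1 annotated exon. Hist2h3c1 has 2, from 2 transcript models, but they cover its whole span without an intron. The lincRNA is Gm42743, to which the deposited identifier of Hist2h2bb belongs in GENCODE M21, so the values given under the symbol Hist2h2bb may not be those of an H2B gene. Its night minus day difference of 0.37 is the H2B median reported here. Many members share sequence. Of the 64, 58 share at least 1 stretch of 100 bases, the length of a read, with another annotated gene. More than 50% of such stretches are shared in 22. Not all of this is likeness of histone copies. Hist1h1e shares most with the H2B gene Hist1h2be, whose model overlaps its own, and Hist3h2a with Trim17, which is not a histone gene. Members with no stretch shared were Hist1h1a, Hist1h1b, Hist1h1t, Hist1h4d, Hist2h2be and Hist2h4. How reads that fit several copies were counted is not given in the sources used here, so the value of a single copy is uncertain to that extent. For Hist2h3c1 the share was 100%, Gm20634 being the gene with which it shares most. For Hist1h2ab it was 52.4%, for Hist1h2bb 32.8%, for Hist1h3a 32.2% and for Hist1h4a 31.8%.

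RefSeq promoters (GRCm38.p6, 250 bases before to 50 after the start) could be matched for 56 members. Both strands were searched for the letters of 4 short motifs. CCAAT was present in 83.9% of these promoters, against 37.4% of all 32851 promoters in the table. It was in every matched H1, H2A, H2B and H3 promoter and in 3 of 12 H4 promoters. TATAAA was present in 58.9% against 13.6%. ATTTGCAT, the octamer motif known from histone H2B promoters, was present in 11 of 56 (19.6% against 1.74%): 6 H2A and 5 H2B promoters. Genes with close starts that are transcribed away from each other have overlapping windows, so a site can be counted for both. The octamers of Hist1h2ae and Hist1h2bg, and of Hist1h2ah and Hist1h2bk, are such shared sites. Some TATAAA and CCAAT matches are shared in the same way. CACGTG, the E-box motif bound by the clock factors CLOCK and BMAL1, was in 0 of 56, against 7.15% of all promoters. A match is a match of letters and not a binding site. The 250 bases before the start of 3 genes that passed a test below are printed with these motifs in capitals, on either strand.
Hist1h2ab (chr13:23750838-23751087, plus strand): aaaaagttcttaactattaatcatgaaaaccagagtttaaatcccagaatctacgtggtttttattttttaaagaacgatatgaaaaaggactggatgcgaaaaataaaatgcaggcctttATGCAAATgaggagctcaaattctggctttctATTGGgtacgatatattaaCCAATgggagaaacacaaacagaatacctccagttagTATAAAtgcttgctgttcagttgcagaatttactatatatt
Hist1h2bb (chr13:23746484-23746733, plus strand): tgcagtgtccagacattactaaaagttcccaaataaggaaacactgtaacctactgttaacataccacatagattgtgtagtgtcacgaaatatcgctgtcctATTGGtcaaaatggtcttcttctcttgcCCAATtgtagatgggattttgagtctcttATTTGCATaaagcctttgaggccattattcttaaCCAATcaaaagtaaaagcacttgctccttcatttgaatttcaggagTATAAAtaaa
Hist1h4a (chr13:23761250-23761499, minus strand): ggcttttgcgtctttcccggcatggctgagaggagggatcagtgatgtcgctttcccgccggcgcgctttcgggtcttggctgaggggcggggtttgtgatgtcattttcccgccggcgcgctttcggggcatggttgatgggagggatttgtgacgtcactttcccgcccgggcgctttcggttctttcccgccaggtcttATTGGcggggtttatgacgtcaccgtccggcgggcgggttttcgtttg
The Hist1h2ab and Hist1h2bb windows each held the octamer, CCAAT and TATAAA. The Hist1h4a window held CCAAT, read on the opposite strand as ATTGG, and its TATAAA lies in the 50 bases after the RefSeq start, which are not printed.

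Library totals ranged from 34715506 to 46074052 counts. Levels are given as CPM, counts relative to the library total, after TMM scaling, which sets libraries to a common scale from the bulk of their genes. Cry1 was at 5.71 to 13.6 CPM and Cry2 at 12.4 to 22.8 CPM, which does not check the genotype, because a disrupted gene can still be transcribed outside the deleted part. The hepatocyte marker Alb averaged 66637 CPM. Several libraries were less like their own replicate than like a library of another time point. Over 9876 genes, ZT02 replicate 1 correlated more with ZT06 replicate 1 (r = 0.48) than with its own replicate (r = 0.15), and ZT02 replicate 2 more with ZT06 replicate 2 (r = 0.49). ZT22 replicate 2 also correlated more with both ZT18 libraries (r = 0.28 each) than with ZT22 replicate 1 (r = 0.17), which was closest to ZT02 replicate 1 (r = 0.22). Counts of calls are also given without either crossed pair of the ZT02 and ZT06 libraries, and with each library left out. The libraries of each time point differed by more than counting noise, with chi-square divided by its degrees of freedom at 16.8 to 100.5.

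The members together held 207521 counts, 0.0368% to 0.0574% of a library's counts. Their sum was 444 ± 50.6 CPM (SD, n = 12), lowest in ZT02 replicate 1 (389.6 CPM) and highest in ZT14 replicate 1 (557.2 CPM). A few genes carried most of it. The H2B gene Hist1h2bc took 18.7% and the H1 gene Hist1h1c 18.6% of the members' counts, and 6 genes took 74.6%. Of the counts, H1 genes took 34.2% ± 2.64, H4 genes 31.5% ± 1.65, H2B genes 23.8% ± 2.34, H3 genes 5.75% ± 0.801 and H2A genes 4.78% ± 0.628 (SD over 12 libraries). Per kb of annotated exon the order of classes changed, with H4 at 46.1%, H2B at 20.9%, H1 at 19.2%, H3 at 7.25% and H2A at 6.66%.

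Among H1 genes, Hist1h1c (chr13:23738808-23740367, encoding H1.2) had 53.0 ± 12.8 CPM per kb of exon and Hist1h1e (H1.4) had 29.3 ± 3.35. Hist1h1c, with 82.7 CPM on average, ranged from 63.4 in ZT10 replicate 2 to 136 in ZT14 replicate 1. Hist1h1e was steadier, at 44.4 to 70.0 CPM. Neither passed a test (adjusted p of the 24 h fit, explained below, 0.17 and 0.86, edgeR quasi-likelihood).
Among H2A genes the highest levels per kb were those of Hist2h2ac (13.9 ± 2.51) and Hist1h2ab (3.45 ± 1.72). Among H2B genes they were Hist1h2bc (72.0 ± 11.4) and Hist1h2bb (6.23 ± 2.29). Among H3 genes they were Hist1h3e (10.5 ± 2.03) and Hist2h3b (5.91 ± 1.10). H4 had the highest single gene, Hist1h4h (94.0 ± 12.8), followed by Hist1h4c (37.4 ± 5.66). In this order Hist1h4h lies above Hist1h2bc, whose lowest-to-highest range of 52.9 to 96.8 overlaps its own of 76.5 to 109.8. The order depends on the gene model: over the RefSeq span Hist1h1c had 114 CPM per kb and Hist1h4h 102.

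**Figure D1:**
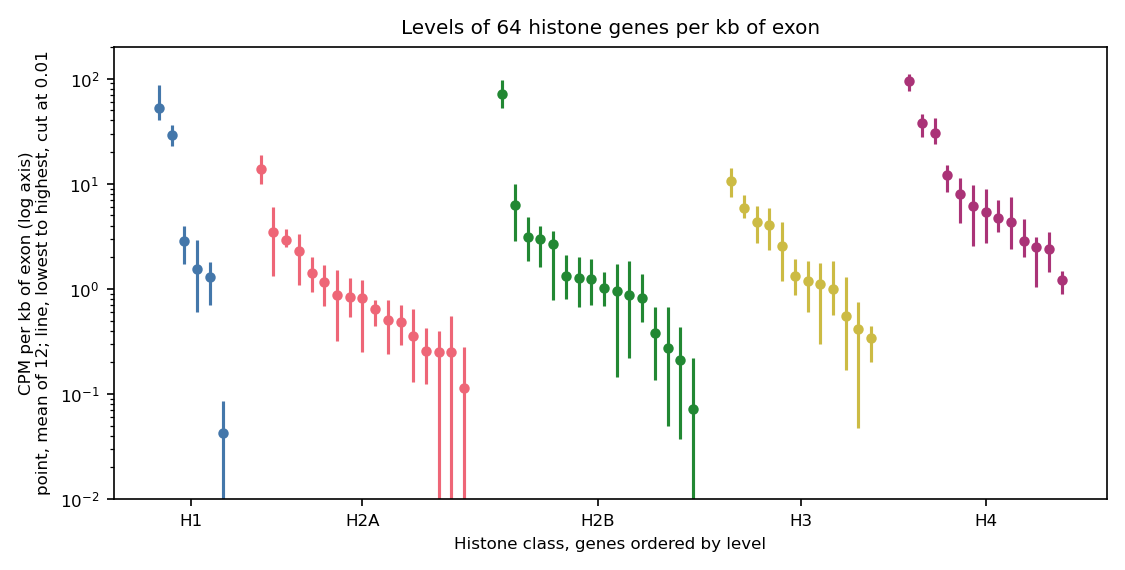
Level of each of the 64 histone genes in CPM per kb of exon (log axis), grouped by class and ordered by level; points are means of 12 libraries and lines run from the lowest to the highest library, cut at 0.01. In each class 1 to 3 genes stand above the rest, led by Hist1h4h at 94.0 and Hist1h2bc at 72.0 CPM per kb.

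Of the 64 members, 58 passed the filter on low counts and were tested among 17142 genes. The 6 others (Hist1h1t, Hist1h2ah, Hist1h2al, Hist1h2an, Hist1h2ap and Hist1h2bp) averaged 0.0384 to 0.103 CPM, near the 0.0687 to 0.0854 CPM that 3 counts are worth in a library, and no time difference could be detected at that depth. A gene was called at an adjusted p below 0.05 (edgeR quasi-likelihood, Benjamini-Hochberg over all 17142 genes).

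The first question was whether any of the 6 time points differed. No member was called by edgeR, against 4.82% of all tested genes. At an unadjusted p below 0.05 there were 10 members (17.2%, against 24.8% of all genes). DESeq2 called 6 of the 58 members and 2524 of the 17142 genes, and limma-voom 0 members and 713 genes. Nearest were Hist1h4a (adjusted p = 0.0536) and Hist1h2ab (adjusted p = 0.0568).

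The second comparison set the night libraries (ZT14, 18 and 22, when the mice ate) against the day libraries (ZT02, 6 and 10). Histone mRNAs leaned to the night, by small amounts. The fitted night minus day difference was above 0 for 53 of 58 tested members (91.4%, against 51.2% of all tested genes), with a median of 0.29 on the log2 scale against 0.01 over all genes. For most single genes that difference did not pass the test. The test called 4 members (6.90%, against 9.70% of all genes), all higher at night (4.80% of all genes were called higher): Hist1h4a, Hist1h2ab, Hist2h2be and Hist2h3c1. Called lower were 0 members, against 4.89%. At an unadjusted p below 0.05, 17 members were higher (29.3%, against 13.5%) and 0 lower (13.1%). The members share libraries and, as said, reads, so these counts are not independent observations.
In 15 members (25.9%, against 11.4%) the mean of every night time point lay above that of every day time point, and in 0 members was it the reverse (11.9%). In no member were all 6 night libraries above all 6 day libraries (1.60% of all genes), or all below (2.10%). In bulk tissue, fewer cells that express a gene and less of its RNA per cell cannot be told apart.

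The size of the shift rests in part on ZT14 replicate 1 and ZT18 replicate 1. In these libraries 53 and 52 of 58 members were above their own mean, and they held the highest value of 16 and 11 members. Without both, 41 of 58 differences were above 0 and the median was 0.16. Between night and day edgeR then called 0 members (10 at an unadjusted p below 0.05). Over all 17142 genes the same omission left 180 night-day calls, against 1662 with all libraries. The loss of calls was thus not particular to the histone genes. Leaving out 1 library at a time kept 48 to 56 differences above 0. Without ZT02 replicate 1 and ZT06 replicate 2 there were 50. Between night and day edgeR called 3 members (Hist1h1d, Hist1h2ab and Hist2h3c1) and 1139 of all genes. Without ZT02 replicate 2 and ZT06 replicate 1 there were 51, with 2 members (Hist1h2ab and Hist1h4a) and 892 of all genes called. Scaled by total counts alone, 54 were above 0 and 6 members were called higher, with 1701 of all genes called in either direction. That scaling moved the share of higher genes among all night-day calls from 49.5% to 63.3%.

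By class the median night minus day difference was 0.18 for H1 (5 of 5 tested above 0), 0.23 for H2A (12 of 13), 0.37 for H2B (14 of 15), 0.47 for H3 (10 of 12) and 0.21 for H4 (12 of 13), on the log2 scale. Differences between classes were not tested. The sum over the 12 H3 genes was 29.1 ± 3.19 CPM at night and 22.1 ± 3.30 by day (SD, n = 6). For the 13 H4 genes it was 146 ± 17.6 and 134 ± 13.5, within the spread of the libraries. None of the 6 most abundant genes was called between night and day by edgeR. Their log2 differences were 0.08 ± 0.12 (SE) for Hist1h2bc, 0.18 ± 0.14 for Hist1h1c, 0.10 ± 0.08 for Hist1h1e, 0.00 ± 0.11 for Hist1h4h, 0.25 ± 0.08 for Hist1h4d (adjusted p = 0.0829) and 0.10 ± 0.11 for Hist1h4c. Lowest of all was Hist1h3c, at -0.07 ± 0.25. Members with a mean of at least 50 counts per library had a median of 0.24 (28 of 31 above 0).

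**Figure D2:**
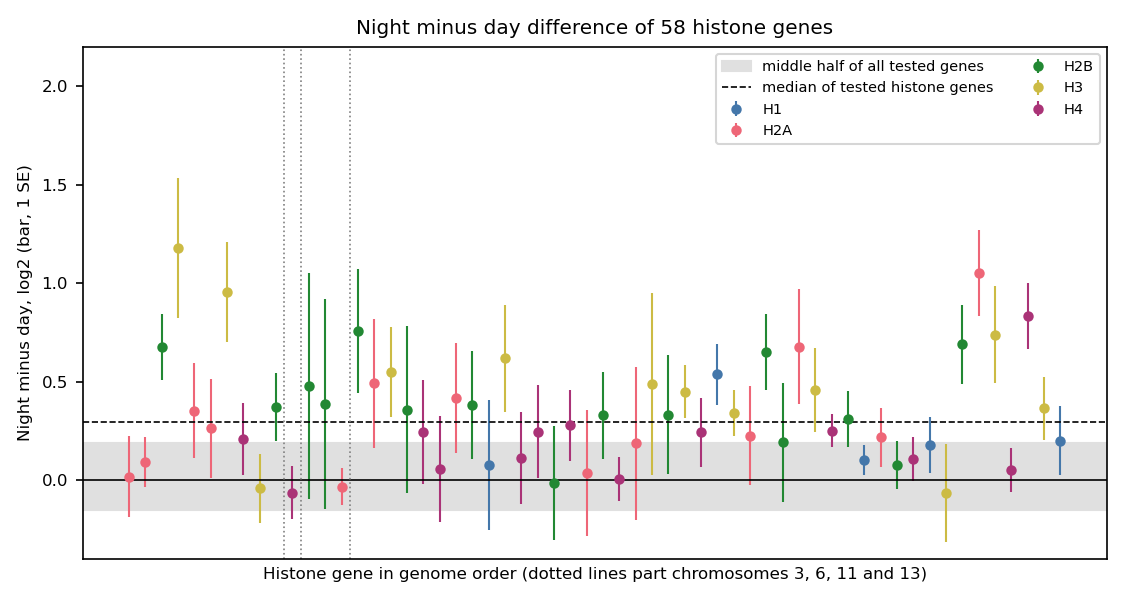
Fitted night minus day difference (log2, bars 1 SE) of the 58 tested histone genes in genome order, coloured by class, with the interquartile range of all tested genes in grey and the histone median of 0.29 dashed. Most points lie above 0, and 53 of 58 do so.

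The third comparison fitted a 24 h cosine. Here 5 members were called (8.62%, against 12.0% of all tested genes): Hist1h4a, Hist1h2ab, Hist2h2be, Hist1h3a and Hist1h2bb. Without adjustment 19 members had p below 0.05 in edgeR (32.8%, near the 31.5% of all genes). All 5 called members had their fitted peak between ZT12 and ZT20 (8.62% of members, against 5.57% of all genes called with a peak in that window). A range below is the fitted peak divided by the fitted trough, with its 95% interval, both from least squares on log2 CPM.

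Hist1h4a (ENSMUSG00000060093, chr13:23760692-23761230, minus strand, 1 exon) encodes histone H4. At ZT02 its libraries had 1.79 and 1.71 CPM; ZT06 gave 2.22 and 1.46, ZT10 2.63 and 2.75, ZT14 3.09 and 4.77, ZT18 4.60 and 4.50, and ZT22 2.15 and 3.38. The ZT18 libraries and 1 ZT14 library were high and the ZT02 and ZT06 libraries low; night and day overlapped through ZT22 replicate 1. Night libraries averaged 3.75 ± 1.05 CPM and day libraries 2.09 ± 0.526 (SD, n = 6), a log2 difference of 0.83 ± 0.17 (SE; adjusted p = 0.0134, edgeR). The range was 2.64-fold (1.88 to 3.70), with a peak at ZT16.2 (adjusted p = 0.00552, edgeR). The 24 h call held in all 22 alternatives tried, with adjusted p up to 0.0490. The night-day call was lost without ZT02 replicate 1 and ZT06 replicate 2 (adjusted p = 0.0538) and without ZT14 replicate 1 and ZT18 replicate 1 (0.0621).

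Hist1h2ab (ENSMUSG00000061615, chr13:23751126-23751598, plus strand, 1 exon) encodes H2A. At ZT02 its libraries had 0.919 and 0.626 CPM; ZT06 gave 1.27 and 0.731, ZT10 1.10 and 1.63, ZT14 2.71 and 2.38, ZT18 2.86 and 2.50, and ZT22 0.943 and 1.87. All 4 libraries of ZT14 and ZT18 lay above every other library. The night mean was 2.21 ± 0.709 CPM and the day mean 1.05 ± 0.372 (SD, n = 6), a log2 difference of 1.05 ± 0.22 (SE; adjusted p = 0.0163, edgeR). The range was 3.46-fold (2.16 to 5.56), with a peak at ZT15.8 (adjusted p = 0.00704, edgeR). The night-day call was lost without ZT14 replicate 1 or without ZT18 replicate 1 (adjusted p up to 0.0528 in single-library omissions), and the 24 h call without both (0.0585) or without ZT02 replicate 1 and ZT06 replicate 2 (0.0510).

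Hist2h2be (ENSMUSG00000068854, chr3:96221119-96223738, plus strand, 1 exon) encodes H2B and shares no 100-base stretch with another gene. At ZT02 its libraries had 3.42 and 2.22 CPM; ZT06 gave 2.42 and 2.14, ZT10 3.16 and 1.77, ZT14 3.49 and 2.91, ZT18 4.46 and 4.12, and ZT22 5.29 and 4.18. The ZT18 and ZT22 libraries were the 4 highest, and ZT14 replicate 2 overlapped the day. The night mean was 4.07 ± 0.817 CPM against 2.52 ± 0.637 by day (SD, n = 6), a log2 difference of 0.68 ± 0.17 (SE; adjusted p = 0.0317, edgeR). The peak, at ZT19.6, came later than those of the chromosome 13 genes above, with a range of 2.12-fold (1.48 to 3.05; adjusted p = 0.0199, edgeR); the difference in peak time was not tested. The night-day call was lost in 7 of 12 omissions of 1 library. Its divergent neighbour Hist2h2ac, an H2A gene whose start lies 239 bases away, differed by 0.09 between night and day (log2) and was not called (24 h adjusted p = 0.13, edgeR).

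Hist1h3a (ENSMUSG00000069265, chr13:23761853-23762386, minus strand, 1 exon) encodes H3. At ZT02 its libraries had 1.26 and 1.42 CPM; ZT06 gave 1.90 and 1.86, ZT10 2.53 and 2.38, ZT14 1.82 and 3.12, ZT18 2.86 and 3.14, and ZT22 1.47 and 2.08. The lowest libraries were those of ZT02 and ZT22 replicate 1, so night and day overlapped widely. The range was 1.90-fold (1.30 to 2.77), with a peak at ZT14.4 (adjusted p = 0.0425, edgeR); that call was lost in 10 of 12 omissions of 1 library.

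Hist1h2bb (ENSMUSG00000075031, chr13:23746734-23747241, plus strand, 1 exon) encodes H2B. At ZT02 its libraries had 2.16 and 1.45 CPM; ZT06 gave 2.32 and 1.69, ZT10 2.26 and 5.06, ZT14 4.00 and 4.03, ZT18 4.44 and 3.45, and ZT22 3.25 and 3.84. Apart from ZT10 replicate 2, the highest of all, every day library lay below every night library. The range was 2.34-fold (1.43 to 3.83), with a peak at ZT15.9 (adjusted p = 0.0467, edgeR); that call was lost in 9 of 12 omissions of 1 library.

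Hist2h3c1 (ENSMUSG00000093769, chr3:96246685-96248509, plus strand, 2 transcript models without an intron) encodes H3. At ZT02 its libraries had 1.93 and 0.541 CPM; ZT06 gave 1.10 and 0.900, ZT10 2.46 and 1.63, ZT14 2.66 and 1.99, ZT18 2.39 and 3.00, and ZT22 2.78 and 3.22. Most day libraries were low, and ZT10 replicate 1 lay among the night libraries. The night mean was 2.67 ± 0.439 CPM against 1.43 ± 0.711 by day (SD, n = 6), a log2 difference of 0.95 ± 0.25 (SE; adjusted p = 0.0407, edgeR). That call was lost in 8 of 12 omissions of 1 library.

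**Figure D3:**
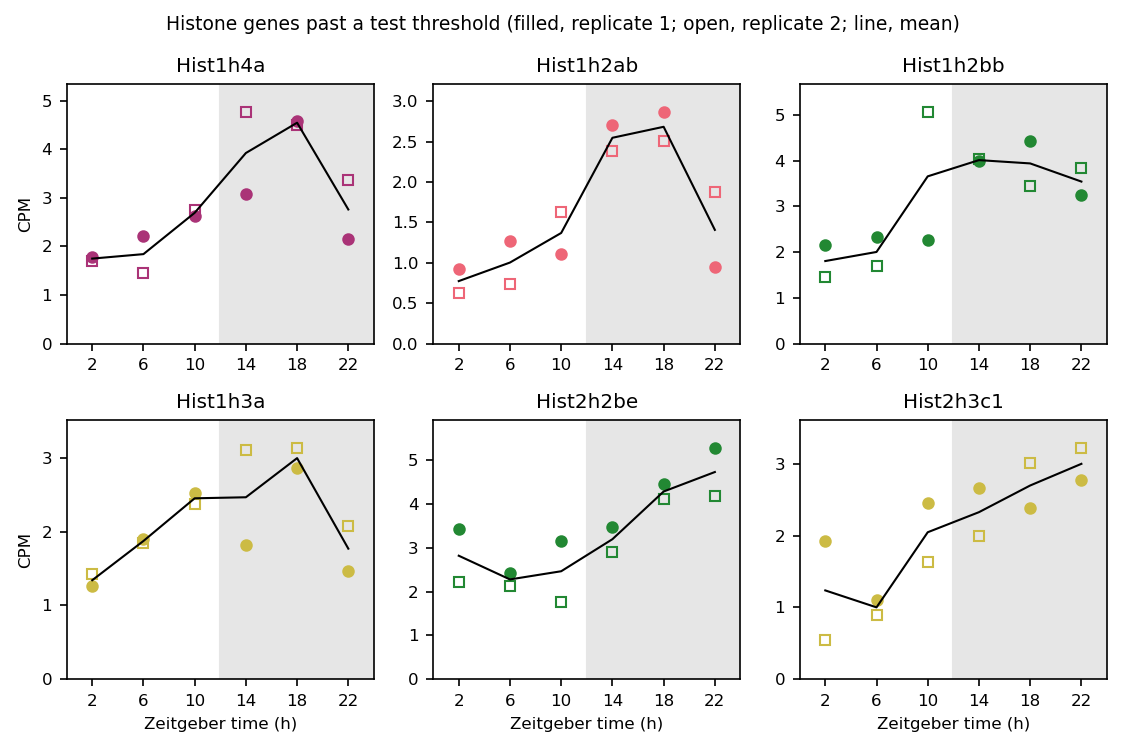
CPM of the 6 histone genes past a test threshold by zeitgeber time, with filled points for replicate 1, open points for replicate 2, a line through the means and the night in grey. Hist1h4a and Hist1h2ab are highest at ZT14 and ZT18, and Hist2h2be and Hist2h3c1 are highest at ZT22.

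Of the 5 members called in the 24 h fit, 4 lie close together. They are among the 7 members from Hist1h2bb to Hist1h1a at the distal end of the large cluster on chromosome 13 (chr13:23746734-23764406, 17673 bp, GRCm38). The stretch was picked after its values were seen, around 4 genes called in the 24 h fit, so no test is given. A wider fitted range and more alike levels than in other members follow in part from that choice. In genome order the stretch holds Hist1h2bb, Hist1h2ab, Hist1h3b, Hist1h4b, Hist1h4a, Hist1h3a and Hist1h1a, 1 or 2 genes of each class. The 3 not called had adjusted p of 0.0685 (Hist1h3b), 0.11 (Hist1h4b) and 0.0537 (Hist1h1a). Their fitted peaks fell from ZT12.2 (Hist1h4b) to ZT16.8 (Hist1h3b). The median fitted range over the 7 genes was 2.08-fold, against 1.44-fold over the 51 other tested members and 1.31-fold over all tested genes.
Across the 12 libraries the log2 levels of the 7 genes correlated with a median r of 0.66 (21 pairs), against 0.24 for the 1275 pairs of other members. These are descriptions: the genes share libraries and partly sequence. The pattern most like that of Hist1h2ab among all tested members was that of Hist1h4a (r = 0.93 over 12 libraries), a gene of another class. For Hist1h4a, Hist1h4b, Hist1h3a and Hist1h1a the closest pattern also lay within the stretch. For Hist1h2bb and Hist1h3b it lay outside, in Hist2h2bb on chromosome 3 (r = 0.91) and Hist1h2ak (r = 0.82).

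Members next to the stretch were not called. Hist1h3c, the next member on the proximal side, had a 24 h adjusted p of 0.67 (edgeR), a log2 night minus day difference of -0.07 and a fitted peak at ZT1.31. Beyond it, Hist1h1c, Hist1h4c and Hist1h2bc were not called (adjusted p of 0.17, 0.28 and 0.77). None of the 37 other tested members on chromosome 13 was called in the 24 h fit by edgeR or in the night-day contrast, though 35 of them had a difference above 0. On the distal side, genes of the Slc17 family of transporters were called: Slc17a3 was higher at night by 0.72 (log2, adjusted p = 0.0327) with a peak at ZT18.6, and Slc17a2 peaked at ZT9.81 (24 h adjusted p = 0.0343). The antisense gene 4930558J22Rik overlaps Hist1h4b, had 81 counts in all and was not tested; whether counting used strand is not given, so reads of the overlap cannot be assigned with certainty.

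**Figure D4:**
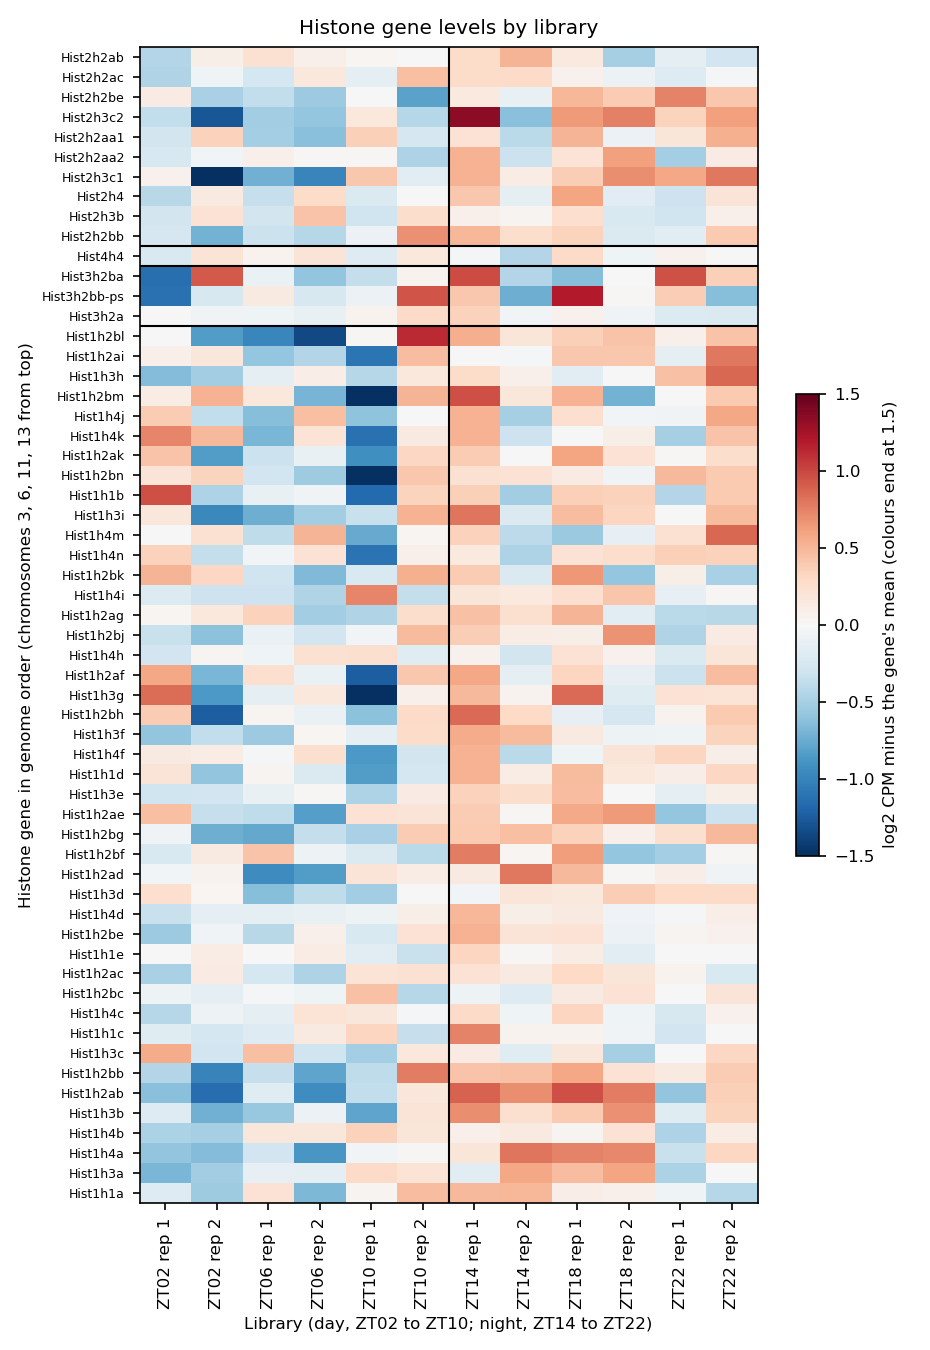
Level of the 58 tested histone genes (rows, genome order from chromosome 3 at the top to the distal end of the chromosome 13 cluster at the bottom) in the 12 libraries (columns), as log2 CPM minus each gene's mean. The lowest 7 rows show the stretch from Hist1h2bb to Hist1h1a, low at ZT02 and, for most of them, high at ZT14 and ZT18; ZT10 replicate 1 is low across many rows of the proximal cluster.

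Peak times of all tested members, called or not, gathered in the night. A fitted peak between ZT12 and ZT20 was found for 42 of 58 members (72.4%, against 36.7% of all tested genes), and 0 members peaked between ZT4 and ZT8 (18.1% of all genes). By time point means, 19 members were highest at ZT14 (32.8%, against 18.6% of all tested genes), 19 at ZT18 (32.8%, against 18.4%) and 11 at ZT22 (19.0%, against 11.9%). The lowest mean was at ZT02 in 22 members (37.9%, against 16.9%), at ZT06 in 16 (27.6%, against 14.9%) and at ZT10 in 13 (22.4%, near the 21.7% of all genes).

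Libraries of the same time point often differed. Over the 58 tested members the median deviation from a gene's own mean was 0.38 and 0.06 (log2) at ZT14, 0.31 and 0.02 at ZT18, -0.01 and 0.23 at ZT22, -0.18 and -0.28 at ZT02, -0.18 and -0.11 at ZT06, and -0.22 and 0.16 at ZT10. The ZT02 and ZT06 libraries were below 0 in all 4 cases, and both ZT10 libraries stood on opposite sides. ZT10 replicate 1 held the lowest value of 15 members, among them Hist1h1b (0.451 CPM, against 1.38 in replicate 2), an H1 gene, and Hist1h2bn (0.301 against 1.28). The same library was the lowest for Mki67, a marker of dividing cells (1.88 CPM, against 5.60 in replicate 2), and for the summed G2 and mitosis genes (9.33 CPM). Other libraries differed: that sum was highest in ZT02 replicate 1 (25.0 CPM), where the histone median was -0.18. It was 13.1 CPM in ZT14 replicate 1, where the histone median was highest. The part of these genes in the histone values was not tested. In ZT10 replicate 1 Hist1h2bc was at its highest (112 CPM, against 61.2 in replicate 2) and Hist1h1c at 101 CPM against 63.4. Summed CPM in ZT10 replicate 1 was 473 and in replicate 2 396.5, the reverse of their medians over genes. The sum follows the few abundant genes and the median the many low ones.

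**Figure D5:**
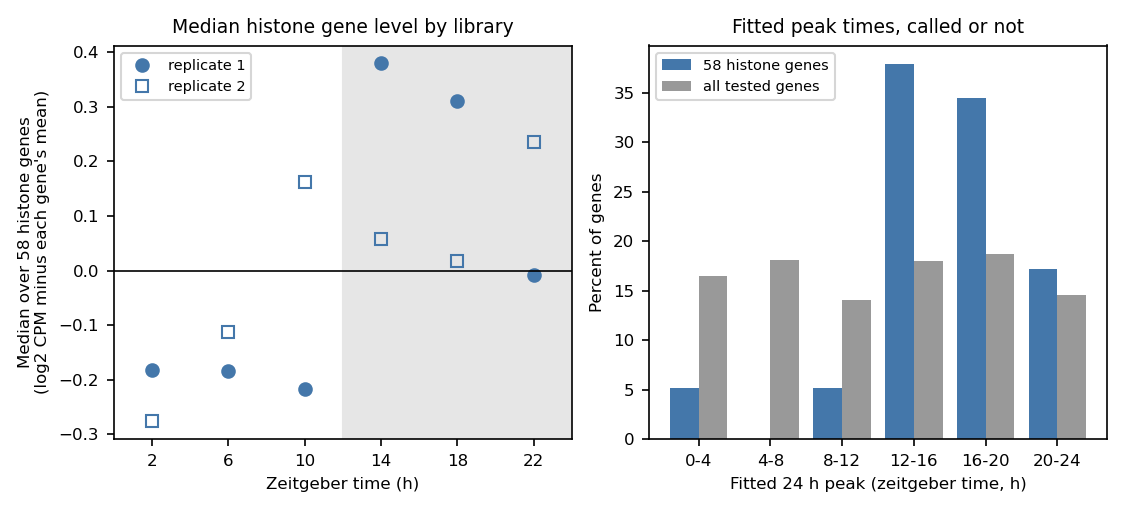
Left, median over the 58 tested histone genes of log2 CPM minus each gene's mean, by zeitgeber time, with filled points for replicate 1 and open squares for replicate 2; ZT14 replicate 1 is highest at 0.38. Right, percent of genes by fitted 24 h peak time in 4 h bins, called or not, for histone genes and for all tested genes; 37.9% and 34.5% of histone genes fall in the bins from ZT12 to ZT16 and ZT16 to ZT20.

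Among members with a mean of at least 50 counts, the largest ratios of highest to lowest library were those of Hist2h3c1 (5.96), Hist1h2ab (4.57) and Hist1h4k (3.75). Hist1h4k, an H4 gene that shares 64.3% of its 100-base stretches with other genes, had 3.01 and 2.53 CPM at ZT02; ZT06 gave 1.10 and 2.08, ZT10 0.802 and 1.98, ZT14 2.60 and 1.44, ZT18 1.79 and 1.92, and ZT22 1.26 and 2.44. Its libraries differed as much within time points as between them (24 h adjusted p = 0.57, edgeR). The smallest ratio was that of Hist1h4h (1.44), whose libraries stayed between 36.0 and 51.6 CPM.

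Just short of the threshold between night and day were the H1 gene Hist1h1d (11.4 ± 1.47 CPM at night, 7.93 ± 2.06 by day, SD, n = 6; adjusted p = 0.0522, edgeR), Hist1h2bb (adjusted p = 0.0550), Hist1h2bg (0.0582), Hist1h3f (0.0595) and Hist2h3c2 (0.0613). Hist2h3c2 had the largest fitted difference of any member, 1.18 ± 0.36 (log2, SE), at a mean of 0.562 CPM. Its levels were most like those of Hist2h3c1, with which it correlated at r = 0.84 over 12 libraries; both encode H3 and share sequence.

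Features of the genes were set beside the night-day difference without a test. The median difference was 0.25 for tested members whose model ends within 100 bases of the stem-loop and 0.29 where it runs further. It was 0.38 where none was found in the model, which can also mean that the model is short or has no coding sequence to search after. It was 0.38 for the 19 tested members that share more than 50% of their 100-base stretches and 0.25 for the other 39; for the 5 that share none it was 0.21, with 5 of 5 above 0. With CCAAT in the promoter the median was 0.34 (43 tested), and 0.11 without it (9 tested, 8 of them above 0). All 9 of the latter are H4 genes. The 3 H4 genes with CCAAT had differences of 0.83 (Hist1h4a), 0.10 (Hist1h4c) and 0.25 (Hist1h4d).
Divergent neighbours with starts within 1000 bases formed 11 pairs, in most of which an H2A and an H2B gene are transcribed away from each other. Levels of the partners could be far apart: Hist1h2bc had 72.0 CPM per kb of exon and its partner Hist1h2ac 0.641, with 251 bases between the starts. Hist1h2bl and Hist1h2ai, 279 bases apart, had 0.873 and 0.880 CPM per kb.

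Genes of related processes were counted from lists chosen for their roles. Of 24 genes of S phase and DNA replication, 7 were called in the 24 h fit (edgeR; 12.0% of all tested genes were called), 0 were higher and 2 lower at night (4.80% and 4.89% of all tested genes), and the median night minus day difference was -0.02. Tk1, thymidine kinase, was lower at night by 0.62 (adjusted p = 0.011) with a peak at ZT4.18. Mcm5, a subunit of the replicative helicase, peaked at ZT23.1 (24 h adjusted p = 0.0301), and Pola1, a DNA polymerase subunit, at ZT2.92 (0.0315). The summed level of the list ranged from 161.5 to 266 CPM at night and from 210.2 to 255.0 CPM by day.
Of 14 genes of G2 and mitosis edgeR called 0 in any of the 3 tests, with a median difference of 0.45 and 10 of 14 above 0. The most abundant were Mki67, at 5.13 ± 0.591 CPM at night and 4.37 ± 1.93 by day, and Top2a, at 3.88 ± 0.816 and 2.66 ± 1.09 (SD, n = 6). Their list summed to 13.1 to 23.3 CPM at night and 9.33 to 25.0 by day.

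Of 17 tested genes of histone transcription and 3′ end processing, 4 were called in the 24 h fit (12.0% of all tested genes), 1 was higher and 2 were lower at night (4.80% and 4.89%). Ncbp1 and Ncbp2, the subunits of the nuclear cap-binding complex, peaked at ZT15.0 (adjusted p = 0.011) and ZT14.8 (0.0185). Upf1, an RNA helicase that takes part in histone mRNA decay, peaked at ZT16.6 (0.0323). Yy1, a transcription factor, was lower at night by 0.29 (adjusted p = 0.0233). Slbp and Npat, a coactivator of histone genes, were not called: Slbp had 11.6 ± 1.03 CPM at night and 11.9 ± 1.44 by day, and Npat 10.8 ± 1.63 and 12.4 ± 1.51 (SD, n = 6). Of 12 histone chaperones 1 was called, Chaf1b, lower at night by 0.62 (adjusted p = 0.0437).
Of 11 replication-independent variants, 3 were called in the 24 h fit, 1 higher and 2 lower at night. H2afx, whose transcript also holds the stem-loop, had 5.01 and 4.87 CPM at ZT02; ZT06 gave 5.04 and 5.79, ZT10 7.32 and 10.4, ZT14 16.2 and 17.0, ZT18 7.43 and 6.81, and ZT22 6.86 and 7.25. Both ZT14 libraries lay above all others. Its range was 2.63-fold with a peak at ZT14.1 (24 h adjusted p = 0.00738, edgeR), and it was higher at night by 0.60 (log2, adjusted p = 0.00597). H2afv and Cenpa, the centromeric H3 variant, were lower at night by 0.48 and 0.38 (adjusted p = 0.0268 and 0.0489).

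Marker lists of other cell types were measured in the same libraries. Of 12 lymphocyte markers 1 was called, Cd8a, lower at night by 1.28 (log2, adjusted p = 0.0111, edgeR), with 0.205 CPM at night and 0.449 by day. The 12 markers summed to 4.91 to 18.9 CPM at night and 9.33 to 18.2 by day, with 0 of 12 differences above 0 and the lowest sum in ZT14 replicate 1. The 9 erythroid markers summed to 119 to 328 CPM at night and 122 to 382 by day, with 328 CPM in ZT14 replicate 1 and 119 in ZT18 replicate 1. The 7 markers of neutrophils and their precursors summed to 1.13 to 12.6 CPM at night and 1.17 to 2.19 by day. The 12.6 was that of ZT22 replicate 1 alone, and the next highest was 2.96 in ZT22 replicate 2. Markers of hepatocytes, Kupffer cells, stellate cells, cholangiocytes and pancreatic acinar cells had 0 calls by edgeR in the 24 h fit and the night-day contrast. Pancreatic acinar markers summed to 9.15 to 27.9 CPM at night and 5.81 to 16.4 by day, and cholangiocyte markers to 5.92 to 21.5 and 5.24 to 8.66. Here too the highest sums were those of single libraries. They were ZT14 replicate 2 for acinar markers (next highest 16.9) and ZT22 replicate 1 for cholangiocyte markers (next highest 10.5). Of 5 sinusoidal endothelium markers 2 were called in the 24 h fit, Lyve1 (peak ZT13.2, adjusted p = 0.0103) and Oit3 (peak ZT3.29, 0.0415). Where a list had no call, its most abundant members on average over the 12 libraries were Cyp2e1 (5206 CPM) after Alb for hepatocytes, Clec4f (107) and Cd5l (83.7) for Kupffer cells, and Reln (145) and Dcn (143) for stellate cells. They were Alas2 (81.8 CPM) and Hbb-b1 (74.2) for erythroid cells, Sox9 (3.12) and Krt19 (2.31) for cholangiocytes, S100a9 (0.930) and Ltf (0.873) for neutrophils and their precursors, and Cela1 (12.3) and Ctrb1 (0.716) for pancreatic acinar cells. No gene of these lists was at 0 in all libraries. The part of any of these cells in the histone values was not tested.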

How the data were processed

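The 12 liver samples were prepared by a stranded total RNA protocol with rRNA removal and read in pairs for 100 cycles (per the labels). The values used are exon counts of each gene, not normalized, as the authors deposited them; STAR 2.4.0i and mm10 are named in the submitters' processing notes, while the counter, its strand setting and the annotation are not given in the sources used here. Counts were tested with edgeR 4.0.16 (limma 3.58.1, R 4.3.3) after TMM scaling and filterByExpr (minimum count 10, minimum total 15), with 3 designs: 6 time points, a 24 h cosine and sine, and night minus day. CPM used the TMM-scaled totals, and ranges and peaks came from least squares on log2 CPM (prior count 2, 9 residual degrees of freedom). Each test was tried on simulated counts. Alternatives were DESeq2 1.42.0, limma-voom, other scalings and filters, a replicate block and libraries left out; the joint omission of ZT14 replicate 1 and ZT18 replicate 1 was added after seeing the data.

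Gene positions, exon lengths and stem-loops came from GENCODE M21 (GRCm38), matched for 57 members by identifier and 7 by symbol; for 3 the annotated symbol differs from the deposited one, among them Hist2h2aa1 and Hist2h2aa2, whose identifiers are swapped. Promoters came from RefSeq. The stem-loop search used the 16-base histone 3′ stem-loop on the sense strand after the last coding base. Named genes were members called in any test, the 2 of each class with the highest level per kb, the 3 with the widest spread among libraries, and, of each list, at most 4 called genes (smallest 24 h adjusted p) or, in lists without a call, the 2 genes of highest mean CPM; Hist1h1b, Hist1h1d, Hist1h2bg, Hist1h2bn, Hist1h3f, Hist2h3c2, the neighbours of the chromosome 13 stretch, Slbp and Npat were added after their values were seen. Besides the genes reported, the rule selects a further gene that is not reported here. The members and lists were chosen with earlier results of these data known. Library totals were 34715506 to 46074052 counts; limits from low counts cover counting error only.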

Additional observations from a re-analysis of the deposited data

Results flagged for a closer look

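In the 6 day libraries Hist1h2bb, an H2B gene, was at 5.06 CPM in ZT10 replicate 2, and the next highest was 2.32. In the 6 night libraries Hist1h1c, an H1 gene, was at 136 CPM in ZT14 replicate 1, and the next was 84.2. In both cases 1 sample lay far from the others of its group. The check covered 30 groups (15 named histone genes, night and day), and chance alone marks about 1 in 20.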

How the results depend on the processing

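The median night minus day difference of the tested histone genes stayed above 0 under all 22 alternatives, at 0.16 to 0.40 against 0.29. Counts of called members varied more. For any time difference (0 members) they were 2 with total counts only, 6 with DESeq2 and 0 to 1 with 1 library left out. For the 24 h fit (5) they were 3 with no filter on low counts, 12 with DESeq2, 1 without ZT02 replicate 1 and ZT06 replicate 2, 3 without ZT02 replicate 2 and ZT06 replicate 1, 2 without ZT14 replicate 1 and ZT18 replicate 1 (Hist1h3a and Hist1h4a), and 3 to 9 with 1 library left out. For night minus day (4) they were 9 with DESeq2, 3 without ZT02 replicate 1 and ZT06 replicate 2, 2 without ZT02 replicate 2 and ZT06 replicate 1, 0 without ZT14 replicate 1 and ZT18 replicate 1, and 1 to 8 with 1 library left out; the single one left was Hist1h4a, without ZT14 replicate 1 or ZT18 replicate 1. With the replicate block the counts were 0, 4 and 5. Counts over all 17142 tested genes varied too. In the same order of tests they were 826, 2051 and 1662 in the main fit and 2524, 3378 and 2069 with DESeq2. For the 24 h fit they were 615 without ZT02 replicate 1 and ZT06 replicate 2, and 1342 without ZT02 replicate 2 and ZT06 replicate 1. Without ZT14 replicate 1 and ZT18 replicate 1 they were 533 for the 24 h fit and 180 for night minus day. Deviations from time point means correlated at -0.18 to 0.27 over 15 pairs of time points, above 0.1 in 2 of them. The replicate numbers thus do not pair libraries throughout, though ZT02 and ZT06 libraries of the same number were alike. Night minus day for Hist1h4k (0.06) became -0.08, -0.11, -0.10 and -0.13 without ZT06 replicate 1, ZT10 replicate 1, ZT14 replicate 1 and ZT22 replicate 2, -0.13 without ZT02 replicate 2 and ZT06 replicate 1, and -0.087 without ZT14 replicate 1 and ZT18 replicate 1; with 1 library left out it ranged from -0.13 to 0.32. Fewer libraries leave fewer degrees of freedom; otherwise the cause was not tested. Depth limits the 6 untested members, and shared sequence limits the value of single copies.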
